A study of Mus musculus with 6 samples.

Results

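The genes described here are Islr2, Jakmip2, Fgf13, Jakmip1, Dcx, Tubb3 and Nes, 7 genes best known from neurons and neural progenitors, in E13.5 mouse testes. They were chosen from the values themselves: some because their level was lower in testes without Dmrt1, and the rest as neuronal genes for contrast. Their null and control values are therefore a description and carry no test. All probe sets that the platform annotation assigns to exactly 1 of these symbols were taken, 18 of the 45101 on the array, and the 7 genes stand among 18194 symbols so assigned. The name "neuronal-type transcripts lower without Dmrt1" fits the values only in part. Islr2, Jakmip2 and Fgf13 lay clearly lower in the null testes, Dcx and Tubb3 lay lower with overlapping groups, and the brightest probe sets of Jakmip1 and Nes lay higher.

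Dmrt1 encodes a transcription factor with a DM domain made in the fetal testis by both germ cells and Sertoli cells. The study compared gonads of embryos with and without it on a background outcrossed to 129S6/SvEvTac, in which loss of the gene often leads to teratomas. There were 3 control and 3 null samples, 1 array each, called biological replicates in the labels, which do not say whether a sample pooled animals. The controls are Dmrt1 (+/-) by description and genotype entry, although their titles call them wt. The null samples are Dmrt1 (-/-) by title and description, with a genotype entry of flox/flox, and no Cre driver is named, so the sources used here do not say which cell types lost the gene. All 6 samples share the 129S6/SvEvTac outcross. The Dmrt1 probe set gave intensities of 696, 1030 and 796 for the controls against 48.4, 26.9 and 23.8 for the nulls, so the arrays followed their labels.

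The fetal testis holds few neurons, and genes named for their role in the nervous system are often used elsewhere, among them cytoskeletal genes that serve any cell that changes shape or migrates. Islr2 encodes a transmembrane protein with leucine-rich repeats and an immunoglobulin domain that is found on growing axons and binds receptor tyrosine kinases, Ret and the nerve growth factor receptor TrkA among them. Jakmip1 and Jakmip2 encode related coiled-coil proteins; Jakmip1 binds Janus kinases, the GABA-B receptor and microtubules. Fgf13 is an intracellular member of the fibroblast growth factor family that is not secreted and that binds voltage-gated sodium channels and microtubules. Dcx and Tubb3 encode a microtubule-associated protein of migrating neurons and a beta tubulin of neurons, and Nes encodes nestin, an intermediate filament of neural progenitors that is also made by blood vessel cells.

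The start-site windows of 3 of these genes are shown because Islr2 and Fgf13 were lower together without a factor that binds DNA, and because Jakmip1 holds the single match found. Each window runs from 250 bases before an annotated start to 50 after it, in RefSeq sequence of build GRCm38.p6, 5′ to 3′ on the gene's strand. RefSeq windows were matched by symbol for 6 of the 7 genes, 13 windows in all, and for Jakmip2 none is shown. The letters searched were ACANTGT, a loose form of the core bound by DMRT1 in which N is any base. This pattern reads the same on both strands, and capitals mark a match. For Islr2 and Fgf13 the start farthest upstream is given, at chr9:58204270-58204569 and chrX:59585523-59585822, both on the minus strand, and for Jakmip1 the window at chr5:37084986-37085285 on the plus strand.
Islr2: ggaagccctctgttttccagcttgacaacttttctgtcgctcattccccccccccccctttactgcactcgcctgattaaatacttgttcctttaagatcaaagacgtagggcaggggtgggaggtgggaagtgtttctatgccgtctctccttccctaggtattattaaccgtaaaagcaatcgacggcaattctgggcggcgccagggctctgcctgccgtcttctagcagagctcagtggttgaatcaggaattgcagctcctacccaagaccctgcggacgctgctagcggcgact
Fgf13: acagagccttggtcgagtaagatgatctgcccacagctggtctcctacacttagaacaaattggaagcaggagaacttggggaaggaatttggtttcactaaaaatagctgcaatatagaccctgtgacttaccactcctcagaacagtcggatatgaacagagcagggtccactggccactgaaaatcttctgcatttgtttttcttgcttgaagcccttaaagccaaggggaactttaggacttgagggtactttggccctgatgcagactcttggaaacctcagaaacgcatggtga
Jakmip1: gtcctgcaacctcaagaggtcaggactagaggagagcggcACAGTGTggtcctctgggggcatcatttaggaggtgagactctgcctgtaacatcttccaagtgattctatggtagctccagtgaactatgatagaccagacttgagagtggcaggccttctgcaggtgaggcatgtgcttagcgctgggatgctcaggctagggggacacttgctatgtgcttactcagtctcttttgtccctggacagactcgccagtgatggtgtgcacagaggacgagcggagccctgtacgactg
ACANTGT occurred in 1 of the 13 windows, that of Jakmip1, as ACAGTGT with its first base at -210 from the start. Binding of DMRT1 there was not measured. ACANTGT occurred in 7.54% of the 32851 windows of this length over all genes. The 3 windows of Islr2 and the 4 of Fgf13 did not contain these letters, which says nothing about binding elsewhere. Which of its starts each gene used in these testes was not measured.

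Array medians were 14.6 to 14.8 and upper quartiles 224 to 233, so the deposited intensities, made with GCRMA, were on a common scale. Precision is limited by having 3 arrays in each group. Of 13 Sertoli cell markers 13 were above a mean log2 intensity of 4, the minimum used for testing, as were 11 of 13 germ cell markers, 8 of 8 endothelial markers and 4 of 4 fetal Leydig cell markers on the array. The ratio of 3′ to 5′ signal for Actb, a sign of RNA quality, was 2.75 in null replicate 3 and 1.91 to 2.15 elsewhere. Among 22082 probe sets tested with limma, 6 were lower and 0 higher in the null at a Benjamini-Hochberg adjusted p under 0.05, and 725 were lower and 608 higher at an unadjusted p under 0.05. Without control replicate 3 limma called 0 lower, and the count with other single arrays left out was 1 to 4.

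Control replicate 3 stood apart in transcripts of autonomic neurons and chromaffin cells and in some pan-neuronal ones. Of the 7 genes, Tubb3 was the one whose difference changed sign without it. The autonomic neuron and chromaffin list marks sympathetic neurons and cells of the adrenal medulla, and 9 of its 11 genes on the array were highest in control replicate 3. Hand2 and Gata3, also of this list, were highest in null replicate 1, at 753 and 53.8. Of the neural progenitor genes 0 of 10, and of the Schwann cell and neural crest genes 2 of 9, were highest in control replicate 3. Chgb, a secretory granule protein of chromaffin cells, read 1270 there and 7.19 to 19.5 on the other arrays. Dbh, the enzyme that makes noradrenaline, read 594 there and 3.13 to 4.66 on the others, all under the lower quartile of every array. Th, the first enzyme of catecholamine synthesis, read 83.1 against 5.96 to 13.4, and Phox2a, a transcription factor of autonomic neurons, 39.4 against 5.35 to 6.05. These are markers of a cell type that the label of a testis does not name, present on a single control array.

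The summed intensity of the 7 list members above the minimum level was 653, 1204 and 3290 for control replicates 1 to 3 against 1186, 749 and 591 for the nulls in the same order. Apart from control replicate 3 the ranges of the groups overlapped. On those arrays Hand2, at 302 to 753, and Ddc, at 212 to 381, are the largest parts of the sum, so this overlap rests mainly on them. For the pan-neuronal list, 17 of the 29 genes on the array were highest in control replicate 3, with Snap25 of the synaptic vesicle fusion machinery at 672 against 25.4 to 57.1 and Stmn3, a microtubule regulator, at 277 against 9.58 to 15.8. Its summed intensity over 19 genes above the minimum was 13122 to 15040 in controls and 11768 to 12082 in nulls. Ncam1, at 4550 to 6030, is the largest part of that sum, and the median over the genes of log2 intensity centred per gene overlapped, at -0.15 to 0.41 in controls and -0.19 to -0.09 in nulls. In whole testes, fewer cells of a type and less RNA per cell cannot be told apart.

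**Figure D1:**
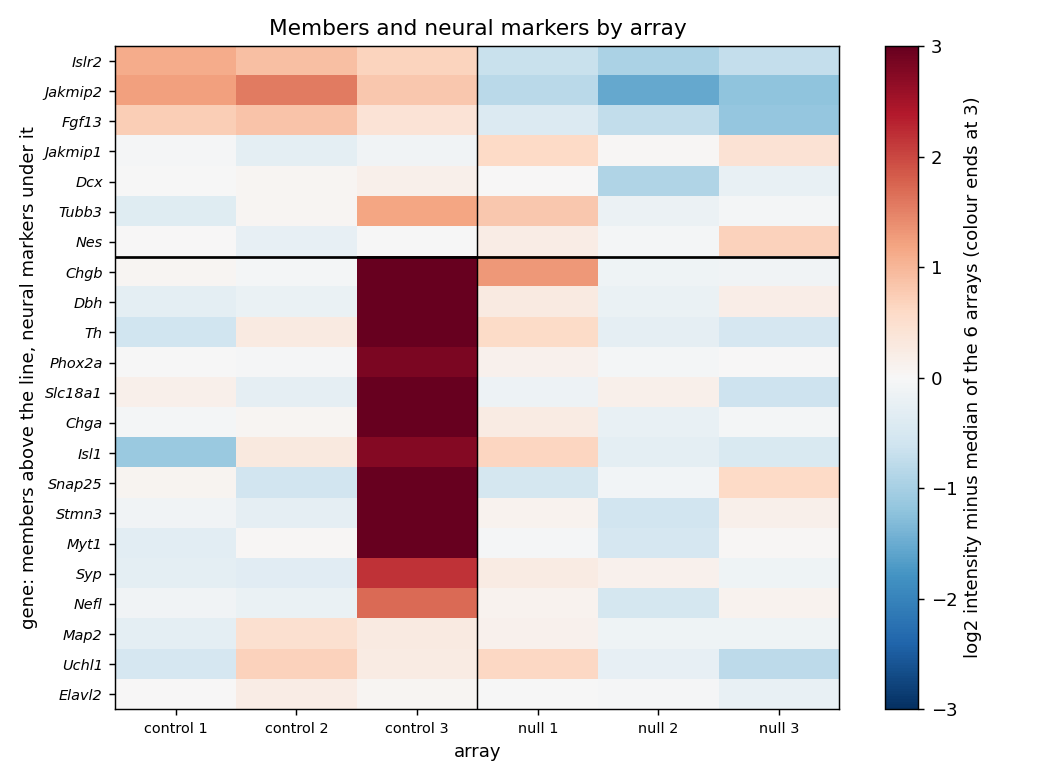
Colour shows log2 intensity minus the median of the 6 arrays for the 7 genes (above the line, brightest probe set) and for 15 neural markers chosen for display (under it); columns are the 3 control and 3 null arrays. Chgb at 1270 and Dbh at 594 mark control replicate 3, whereas Islr2, Jakmip2 and Fgf13 are high on all 3 control arrays.

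Islr2, Jakmip2 and Fgf13 were higher on every control array than on any null array, and within the controls they were lowest in control replicate 3, the array with the chromaffin transcripts. Islr2 intensities, given here and for the genes that follow in the order of replicates 1, 2 and 3, were 57.9, 50.5 and 42.9 for the controls against 16.9, 14.0 and 16.3 for the nulls. The lowest control was 2.54 times the highest null. The means were 50.4 ± 7.50 and 15.7 ± 1.53 (SD, n = 3 each), a log2 difference, null minus control, of -1.67 with a standard error of 0.15, or 3.19-fold. Null values lay close to the array medians, where a fold depends on the background correction, and with 16 added to every intensity the fold was 2.09.

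Jakmip2 read 47.7, 59.5 and 35.2 on the control arrays against 11.6, 6.99 and 8.71 on the null arrays. All null values lay under the array medians and all control values above them. The means were 47.5 ± 12.2 and 9.10 ± 2.33 (SD, n = 3 each), a log2 difference of -2.38 with a standard error of 0.30, or 5.21-fold, and 2.50-fold with 16 added. The other 2 Jakmip2 probe sets read 2.58 to 4.32 on all 6 arrays, below the lower quartile of each array, with log2 differences of -0.14 and 0.05. The Jakmip2 difference thus came from 1 of 3 probe sets, the only one with signal above that quartile.

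Fgf13 was the brightest of the 3, with 435, 468 and 344 on the control arrays against 196, 156 and 117 on the null arrays. Each null array lay below each control array, the closest pair being 1.76-fold apart. The means were 416 ± 64.2 and 156 ± 39.5 (SD, n = 3 each), a log2 difference of -1.43 with a standard error of 0.25, or 2.70-fold. At this level the added constant changed little, and the fold with 16 added was 2.53. A second Fgf13 probe set read 6.21 to 6.74 in controls and 5.36 to 6.21 in nulls, with a log2 difference of -0.13. Null replicate 3, where Fgf13 was lowest, is the array with the high Actb ratio, and without it the log2 difference of Fgf13 was -1.24; its part in the result was not tested.

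**Figure D2:**
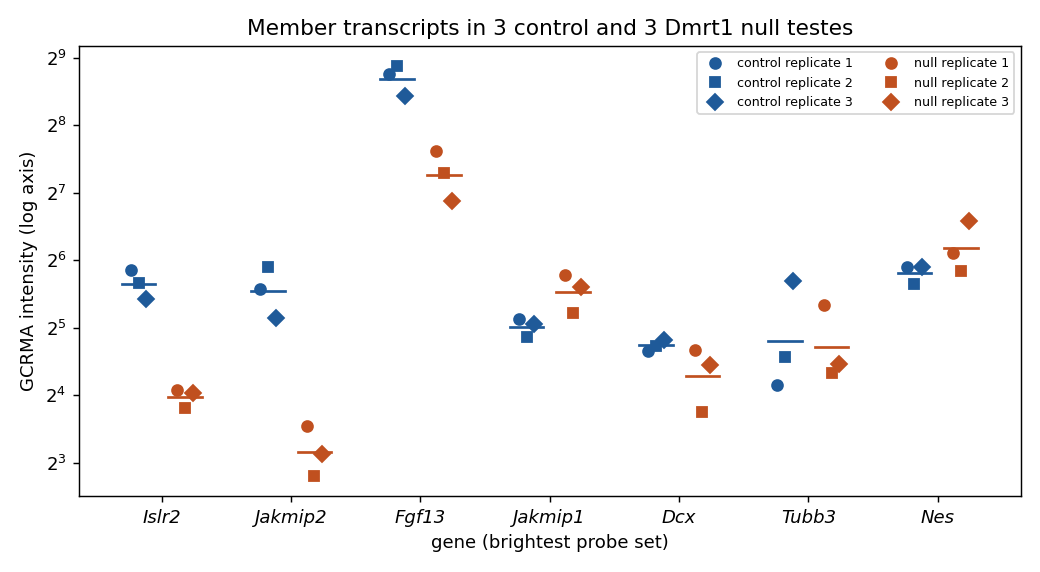
Points are GCRMA intensities of the brightest probe set of each gene on a log axis, blue for control and orange for null, with a symbol per replicate number; short lines are means of the log2 values (n = 3). Islr2, Jakmip2 and Fgf13 separate by group, Tubb3 does not, and the control diamond, replicate 3, is lowest for those 3 genes and highest for Tubb3 at 51.9.

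The 4 remaining genes did not share that pattern. Jakmip1, the closest relative of Jakmip2 in this set, read 34.8, 29.1 and 33.3 on the control arrays against 54.8, 37.1 and 48.6 on the null arrays. Each null was above each control, the closest pair being 1.07-fold apart. On the log2 scale the difference was 0.52 (standard error 0.18), opposite in sign to that of Jakmip2. This probe set is of the x_at type, which can bind more than 1 transcript, and the other 3 Jakmip1 probe sets, all below the minimum level, gave 0.06, 0.21 and -0.07 with overlapping groups.

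Log2 intensities of Dcx were 4.66, 4.73 and 4.81 on the control arrays against 4.67, 3.75 and 4.44 on the null arrays. The groups overlapped, because null replicate 1 lay among the controls, and null replicate 2 was the lowest array. On the log2 scale the difference was -0.45 (standard error 0.28), and it was -0.18 without null replicate 2. The remaining 3 Dcx probe sets were below the minimum level, with differences of -0.09, -0.27 and -0.08. At 2 of them the groups did not overlap, the brighter reading 11.5 to 13.8 in controls and 9.63 to 10.8 in nulls. The dimmer read 3.91 to 3.97 in controls and 3.49 to 3.90 in nulls, below the lower quartile of each array. Neither was tested, and 12.8% of all tested probe sets did not overlap, so nothing is read from this count.

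Tubb3 read 17.8, 23.7 and 51.9 on the control arrays against 40.2, 20.1 and 22.0 on the null arrays. Its highest values were in control replicate 3 and null replicate 1. The log2 difference of -0.10 had a standard error of 0.56, and without control replicate 3 it was 0.35. Nes read 59.7, 49.9 and 59.5 in controls and 69.1, 57.3 and 95.5 in nulls at its brightest probe set, a difference of 0.36 with a standard error of 0.23. The other Nes probe sets gave 0.11 and 0.03, and the groups overlapped at all 3.

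Over all 18 probe sets, 11 were lower and 7 higher in the null. The 8 above the minimum level were split 5 lower and 3 higher, and their groups did not overlap at 4, where 12.8% of all tested probe sets did not overlap. Of these 4, 3 were lower in the null, as were 6.06% of all tested, and 1 was higher, as were 6.73%. At an adjusted p under 0.05 limma called 1 of the 7 genes lower, Islr2, where 0.0272% of all tested probe sets were called lower. Both counts follow from how the genes were chosen, and nothing is read from them. Ordered by difference over the 22082 tested probe sets, 1 lay below Jakmip2, 10 below Islr2, 16 below Fgf13, 659 below Dcx, 6013 below Tubb3, 21251 below Nes and 21820 below Jakmip1.

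**Figure D3:**
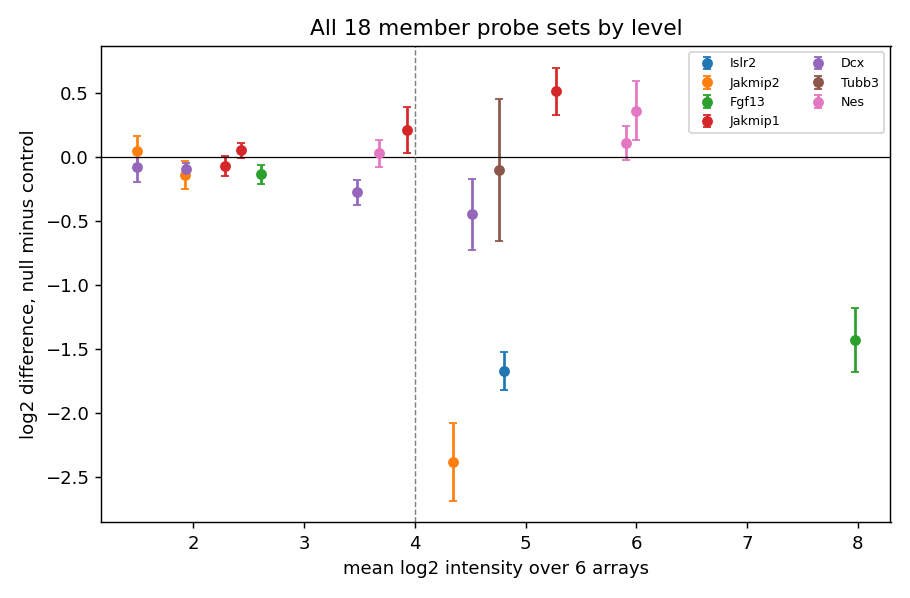
Each point is 1 of the 18 probe sets, placed by its mean log2 intensity over 6 arrays and its log2 difference, null minus control, with bars of 1 standard error (n = 3 per group); the dashed line is the minimum level of 4. The Islr2, Jakmip2 and Fgf13 points at -1.67, -2.38 and -1.43 stand apart, and the probe sets left of the line lie close to 0.

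Leaving out control replicate 3 made the first 3 differences larger in size. They were then -1.79 for Islr2, -2.58 for Jakmip2 and -1.56 for Fgf13. The part of the chromaffin transcripts of that array in these differences was not tested. With any single array left out they stayed within -1.79 to -1.57 for Islr2, -2.58 to -2.20 for Jakmip2 and -1.61 to -1.24 for Fgf13. Jakmip1 stayed within 0.39 to 0.68, Dcx within -0.64 to -0.18 and Nes within 0.16 to 0.53. The Tubb3 difference changed sign, from -0.43 to 0.35. Control replicate 3 and null replicate 2 carry the same leading number in their descriptions, whose meaning the sources do not give. Between these 2 arrays the log2 difference was -1.62 for Islr2, -2.33 for Jakmip2 and -1.14 for Fgf13. It was -1.06 for Dcx, -1.37 for Tubb3, 0.16 for Jakmip1 and -0.05 for Nes. The Islr2 and Jakmip2 values lay within the ranges with single arrays left out, and the values of the 5 remaining genes lay outside theirs.

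**Figure D4:**
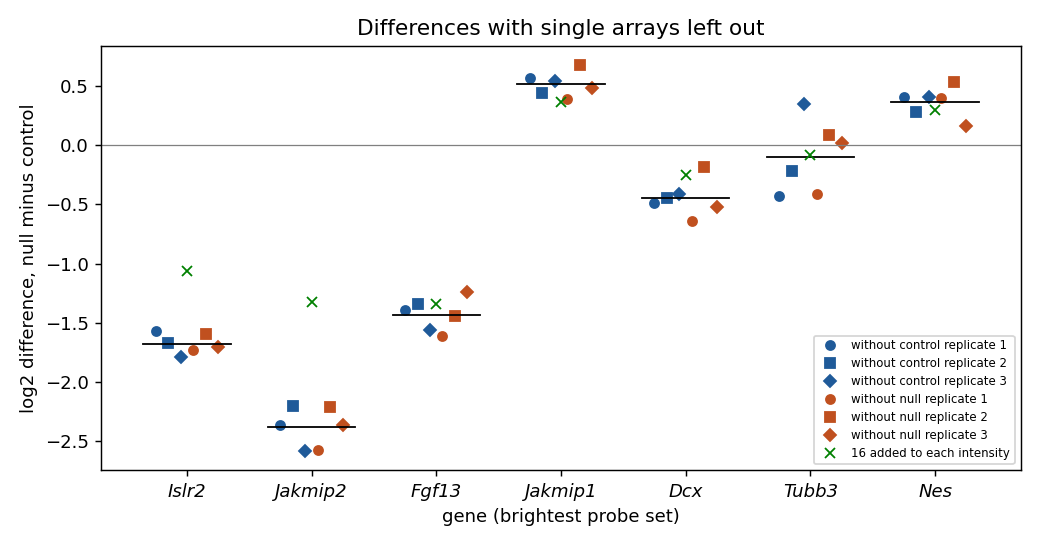
Points are log2 differences, null minus control, with 1 array left out, blue where a control and orange where a null was left out; black lines are the differences with all 6 arrays and green crosses those with 16 added to every intensity. Tubb3 crosses 0, from -0.43 to 0.35, and the crosses of Islr2 and Jakmip2 lie at -1.06 and -1.32.

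The wider neuronal gene set lay mostly lower in the null, with a median close to 0 once control replicate 3 was left out. Of 19 pan-neuronal genes above the minimum level 16 were lower and 3 higher in the null, with a median log2 difference of -0.21 against 0.03 for all 11874 genes. Limma called 0 of them at an adjusted p under 0.05, and 2 were lower at an unadjusted p under 0.05, a level at which 3.28% of all tested probe sets were lower and 6.04% differed in either direction. These were Dpysl3, a collapsin response mediator, at -0.27, and Ncam1, the neural cell adhesion molecule, at -0.19, each with a limma adjusted p of 0.773. Without control replicate 3, 10 of the 19 were lower and the median was -0.02.

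All 7 autonomic and chromaffin genes above the minimum were lower in the null, with a median of -0.72. Limma called 0 of them, with 0 at an unadjusted p under 0.05, and without control replicate 3 the median was -0.06 with 5 of 7 lower. Ddc, the decarboxylase of dopamine and serotonin synthesis, was at -0.72 and Slc18a1, a vesicular monoamine transporter, at -1.44, with limma adjusted p of 0.773 and 0.792. Ddc was at -0.34 and Slc18a1 at -0.15 without that array. Schwann cell and neural crest markers had 3 of 5 lower and a median of -0.06, with the neuregulin receptor Erbb3 at -0.40 and Fabp7 at -0.41. Neural progenitor genes had 2 of 4 lower and a median of -0.15, with the RNA-binding protein Msi1 at -0.36 and Pax6 at 0.53. Limma called 0 of these 9 genes, and Msi1 alone was lower at an unadjusted p under 0.05.

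The lists of relatives and partners of Islr2, Fgf13 and the Jakmip family gave few differences of the size seen for Islr2, Jakmip2 and Fgf13. The Jakmip partners named above are those of Jakmip1. The exception was Ret, the receptor tyrosine kinase to which the Islr2 protein binds, which read 50.1, 107 and 75.8 on the control arrays against 12.1, 16.1 and 16.2 on the null arrays. Its groups did not overlap, and its log2 difference of -2.34 had a limma adjusted p of 0.0979. The lists were written with earlier results of these data known, so nothing about Islr2 is read from the fall of Ret. In the list of Islr relatives and Trk or Ret receptors, 4 of 9 genes were lower and the median was 0.02. Islr, the nearest relative of Islr2 and its neighbour on chromosome 9, read 1620 to 2000 in controls and differed by 0.02. The Ret co-receptor Gfra1 was at -0.28 and the neurotrophin Bdnf at -0.22. Limma called 0 of the 9, with Ret alone at an unadjusted p under 0.05.

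Other FGF homologous factors and sodium channel genes had 3 of 6 lower and a median of 0.05. Fgf12, which is of the same subfamily as Fgf13, was at 0.26 and Scn8a, a sodium channel subunit, at -0.25, with limma adjusted p of 0.792 and 0.817. Fgf14 lay below the minimum level, at 4.44 to 6.37 in controls. Of 5 Jakmip partners 3 were lower, with a median of -0.01, Gabbr1, a GABA-B receptor subunit, at 0.36 and the kinesin Kif5c at -0.32. Jakmip3 was below the minimum level. Limma called 0 genes of both lists, and 0 had an unadjusted p under 0.05.

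The relatives of Dcx, Tubb3 and Nes had medians near 0. In the doublecortin family and its microtubule partners 5 of 7 were lower, with a median of -0.05, or 0.08 without control replicate 3, Map1b at -0.48 and Dclk2 at 0.27. Of 7 beta tubulins 2 were lower and 5 higher, with a median of 0.06 and Tubb4b at 0.17 and Tubb6 at 0.15. Intermediate filaments had 4 of 8 lower and a median of -0.04, with the neurofilament Nefh at -0.39 and Synm at -0.41. Limma called 0 genes in these 3 lists, with 0 at an unadjusted p under 0.05.

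The markers of other cells of the testis were set beside these values. Macrophage markers were lower at 7 of 8, with a median of -0.31, and 5 of the 8 were highest in control replicate 3. The median over these genes of log2 intensity centred per gene was -0.07 to 0.43 in controls and -0.27 to -0.14 in nulls, and these ranges did not overlap. The mannose receptor Mrc1 was at -0.54 and Adgre1, the F4/80 antigen, at -0.40, both at an unadjusted p under 0.05. At that level 3.28% of all tested probe sets were lower, and the limma adjusted p of each marker was 0.773.

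Sertoli cell markers had 5 of 13 lower and a median of 0.06, and their centred medians overlapped, at -0.06 to 0.14 in controls and -0.04 to 0.00 in nulls. Limma called 1 of them, Cst9, which fell by 1.58 on the log2 scale with an adjusted p of 0.0271. Without control replicate 3 limma called 0 probe sets, so this call was lost together with that of Dmrt1. Cst9 read 3040, 3460 and 2940 on control replicates 1 to 3, lowest in replicate 3. At an unadjusted p under 0.05, 3 were lower and 1 was higher, where 3.28% of all tested probe sets were lower and 2.75% higher. Beside Cst9 these markers were Aard at -0.43, Sox8, a relative of Sox9, at -0.59 and the nuclear receptor Nr5a1 at 0.54. The groups did not overlap at 4 of the 13, where 12.8% of all tested probe sets did not overlap. These 4 were Cst9, Aard, Nr5a1 and Ptgds, the last with a log2 difference of 0.01.

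Germ cell markers had 8 of 11 lower and a median of -0.22, but 4 of 11 lower and a median of 0.06 without control replicate 2. Piwil2 and Tdrd5, both of the piRNA pathway, were at -0.60 and -1.42, the 2 at an unadjusted p under 0.05. At that level 3.28% of all tested probe sets were lower, and the limma adjusted p of each gene was 0.773. For fetal Leydig cells the median was -0.53, with the steroid enzymes Cyp17a1 at -0.62 and Cyp11a1 at -0.94, and it was -0.0015 without null replicate 3. For endothelial cells it was 0.18, with the receptors Kdr at -0.15 and Tie1 at 0.52, and without control replicate 2 it was -0.28 with 8 of 8 lower. It was -0.06 for interstitial and peritubular cells, with Ptch1 at -0.10 and Acta2 at -0.18. The mesonephros median of 0.05, with Lhx1 at -0.24 and Wnt9b at 0.29, ranged from -0.10 to 0.21 with single arrays left out. Limma called 0 genes in these lists and 0 macrophage markers, and in the last 4 lists 0 had an unadjusted p under 0.05. The part of these shifts in the values of Islr2, Jakmip2 and Fgf13 was not tested.

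Likeness between genes was measured as the root mean square distance between log2 values over the 6 arrays, each gene centred on its own mean. A small value means like deviations from the mean on each array. The order of arrays within a group can still differ. The distance was 0.27 between Islr2 and Fgf13, 0.42 between Islr2 and Jakmip2, and 0.53 between Jakmip2 and Fgf13. It was 0.61 to 1.11 between Islr2 or Fgf13 and the 4 remaining genes. Among those 4, Jakmip1 and Nes were 0.20 apart, closer than any of the pairs above, and the other pairs 0.47 to 0.64. The nearest genes outside the set were Cst9, a cystatin-related gene of Sertoli cells, at 0.15 from Islr2, and Tox2, an HMG-box factor, at 0.25. H2-Aa, an MHC class II chain, at 0.27, AU015836 at 0.33 and Nmrk1, a kinase of nicotinamide riboside, at 0.36 followed. For Jakmip2 the nearest were H2-Aa at 0.27, Tox2 at 0.40, Cst9 at 0.45, Ret at 0.46 and Mbp at 0.66. For Fgf13 they were Mbp at 0.24, Nmrk1 at 0.27, and Cst9, Otud4, a deubiquitinase, and AU015836 at 0.28 each. These matches are of single probe sets, and H2-Aa matched Islr2 and Jakmip2 by different ones. The Mbp probe set was at -1.16, whereas the brightest one of Mbp, the myelin basic protein gene, was at 0.05. The group difference enters this distance, so genes that differ between the groups by a like amount come first.

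The next protein-coding genes in RefSeq order beside these genes were described where they reached the minimum level. Beside Islr2, Islr and Pml differed by 0.02 and 0.06, and 4930550L24Rik beside Fgf13 by -0.79, in the direction of Fgf13 with overlapping groups and a limma adjusted p of 0.773. Wfs1 beside Jakmip1, Capn6 beside Dcx, Def8 beside Tubb3 and Crabp2 beside Nes were at -0.03, -0.02, 0.30 and 0.21. Neither neighbour of Jakmip2 had a named probe set that reached the minimum level. Fgf13 and Dcx lie on the X chromosome and the remaining genes on 5 different autosomes.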

How the data were processed

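Gonads at E13.5 were profiled on 6 oligonucleotide arrays from 100 ng of total RNA, amplified and labelled with biotin, per the labels' protocols. The authors deposited intensities on a linear scale, and per the submitters' processing notes the tool was GCRMA (version and build not given in the sources used here). This method shrinks dim values to a common floor, which affects folds of dim genes. Depth does not apply to arrays.

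No constant was added before taking log2. The 22082 probe sets averaging 4 or more on that scale were tested with limma 3.58.1 in R 4.3.3 (group as the only term, eBayes with trend, Benjamini-Hochberg adjustment, two-sided). The test was checked on simulated data. Probe sets were named where the platform annotation gave 1 symbol (34958, against 932 with several and 9211 with none). Lists used the brightest tested probe set per gene.

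The genes and lists were chosen with earlier results of these data known. Genes named from a list are its called genes, or otherwise the 2 of smallest p, and for Islr2, Jakmip2 and Fgf13 the 5 nearest genes. Chgb, Dbh, Th, Phox2a, Snap25, Stmn3, Islr, Gfra1, Fgf14, Jakmip3, Aard, Sox8, Nr5a1, Ptgds, the chromosome neighbours and the markers drawn were chosen after values were seen. P-values measure the spread between samples called biological replicates in the labels.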

Additional observations from a re-analysis of the deposited data

How the results depend on the processing

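Limma called 6 probe sets lower, and 4 to 7 with no filter, a filter at a mean log2 of 6, quantile normalization, median centring, 16 added or robust eBayes. It called 1 without the intensity trend and 0 to 4 with single arrays left out (0 without control replicate 3, 1 without control replicate 1, control replicate 2 or null replicate 3, and 2 without null replicate 2), and 0 higher in each of these settings. Islr2 was called with all arrays, with median centring and with robust eBayes, which added Jakmip2, and in no other setting. With the filter at 6 neither gene was tested, their mean log2 being 4.81 and 4.35. Both were chosen from this contrast, so nothing is read from these calls. The replicate number as a block gave 0 lower and 0 higher, with 494 and 322 at an unadjusted p under 0.05. The deviations of same-numbered samples correlated at -0.59, -0.34 and 0.14, so the numbers do not pair the samples and this fit is no better guide. With 16 added the difference was -1.06 for Islr2 and -1.32 for Jakmip2. The mean over all probe sets of a gene, which takes in those near the floor, was -0.82 for Jakmip2, -0.78 for Fgf13 and 0.18 for Jakmip1. Without the filter on level, a setting added after seeing the data, the median was -0.21 for pan-neuronal and -1.03 for autonomic genes. With single arrays left out, these medians ranged from -0.38 to -0.02 and from -1.56 to -0.06. Of the medians of all 17 lists, 7 kept their sign with every single array left out and 10 did not, most of these near 0; the Schwann cell, FGF homologous factor, Jakmip, Islr and receptor, doublecortin, intermediate filament, germ cell, Sertoli cell, endothelial and mesonephros lists changed it.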

Other observations

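Control replicate 3 was also high in genes that none of the lists above hold. At 27 probe sets it was more than 5-fold above every other array, with an intensity of at least 16, against 3 probe sets for control replicate 2, 1 for null replicate 2 and 0 for the other arrays. The 27 covered 21 named genes. Those outside the lists included Tbx20, a T-box factor, at 255 against 3.08 to 4.66 on the other arrays, and Insm1, a zinc finger factor of neuroendocrine cells, at 176 against 7.16 to 17.4. The related Insm2 read 155 against 4.18 to 5.43, and Rgs4, a regulator of G protein signalling, 494 against 6.34 to 11.9. Islr2, Jakmip2, Fgf13, Jakmip1, Dcx, Tubb3 and Nes were not among them.

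In control replicate 2, Gtsf1, a gene of germ cells, read 307 against 11.1 to 43.6 on the other arrays. These genes were chosen after their values were seen.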
